A study of Mus musculus with 19 samples.

Results

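In liver RNA-seq of mice with hepatocyte deletion of Raly, 10 genes of iron handling were followed out of the 24054 genes in the table. They are Scara5, the ferritin receptor, the plasma proteins Hamp and Trf, the transferrin receptors Tfrc and Tfr2, the iron sensor Hfe, the ferritin chains Fth1 and Ftl1, the iron exporter Slc40a1, and the ligand Bmp6. The list was drawn up from the known roles of these genes around Scara5, and Scara5 itself was chosen by its measured values here, a higher level in L-RalyKO livers than in control livers. Its difference is therefore given as a description without a test, and the other 9 genes were tested in a fit over all genes.

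The study compared livers of L-RalyKO mice, which are C57BL/6 Raly flox/flox mice given AAV8.TBG.Cre, with livers of Raly flox/flox littermates given AAV8.TBG.GFP, which the labels call wild type. TBG is a hepatocyte promoter, so both groups carried the floxed alleles and a virus, and other liver cells were not the target of the deletion. Livers were taken 4 weeks after the virus from mice on chow, male unless the study said otherwise, and libraries of 3 mice per group were analysed here. Nothing in the labels ties a control mouse to an L-RalyKO mouse. The values are reads per gene divided by the library's effective size, here called scaled reads, and they are not corrected for gene length.

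Raly, which codes for an RNA-binding protein of the hnRNP family, had values of 50.1, 48.6 and 46.8 in the control mice and 6.34, 6.61 and 7.39 in the L-RalyKO mice (limma, adjusted p = 6.92e-07). Libraries held 28302983 to 38052705 reads, and 3 reads were worth between 0.0789 and 0.105. The first principal component took 50.7% of the variance and separated the groups. Control mouse 1 stood apart from the other controls by a chi-square per degree of freedom on read counts, with 71.1 and 84.3 against them. Every other pair of mice within a group lay between 12.6 and 27.4. Genes with many reads weigh most in that measure. On the second principal component, control mice 2 and 3 were instead farthest apart, at 10.5 and −14.5, with control mouse 1 at 2.89. With control mouse 1 left out 369 genes passed, against 540 without control mouse 2 and 813 without control mouse 3. Without control mouse 1 the log2 differences were 2.73 for Scara5, −0.51 for Slc40a1 (limma, adjusted p = 0.00997) and −0.59 for Bmp6 (0.0701). They were 0.27 for Ftl1 (0.159), 0.18 for Trf (0.371) and 0.18 for Tfrc (0.682). Among 11580 genes tested, 758 passed an adjusted p of 0.05 (6.55%), 389 of them higher and 369 lower in L-RalyKO; with total count scaling the split was 324 higher and 469 lower. Hepatocyte markers such as Alb and Ttr summed to between 91605 and 100108 in control livers and between 101085 and 102438 in L-RalyKO livers, against at most 1196 for any other resident or blood cell list apart from the adipocyte list. Of the 8 hepatocyte markers 1 passed with limma and with edgeR and 3 with DESeq2, where 1088 of all 11580 genes passed with DESeq2. Hnf4a, a transcription factor of hepatocytes, rose from 520, 542 and 680 to 900, 809 and 829 (limma, adjusted p = 0.0155).

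Iron reaches the liver bound to transferrin, which is taken up through transferrin receptors, and surplus iron is stored in ferritin or returned to plasma through ferroportin, the product of Slc40a1. Hepcidin, the product of Hamp, is secreted by hepatocytes and causes ferroportin to be degraded. Its transcription is raised by bone morphogenetic proteins such as BMP6, which in liver is made mainly by sinusoidal endothelial cells, with HFE and TFR2 as sensors of iron-loaded transferrin, and by interleukin 6 through STAT3. Scara5, a class A scavenger receptor, binds ferritin and takes it into cells without transferrin.

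Ferritin, ferroportin and transferrin receptor RNAs are also controlled after transcription, through iron-responsive elements in their untranslated regions. These hairpins bind the iron regulatory proteins when iron is low, which blocks translation from a 5′ element and protects the RNA through a 3′ element. RNA-seq levels of these genes do not measure translation. The elements are shown because they set apart 4 of the 10 genes. A search of annotated untranslated regions (mouse NCBIM37, GENCODE vM1) on the transcribed strand for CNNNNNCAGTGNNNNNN, with all 5 upper stem pairs formed by A-T, G-C or G-T, matched 156 of 20202 genes (0.772%), among them Fth1, Ftl1, Slc40a1 and Tfrc. Each match is printed over 30 bases, with the unpaired C and the 6-base loop in capitals.
Fth1 5′ UTR, chr19:10057222-10057251, plus strand: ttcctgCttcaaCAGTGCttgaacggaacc
Ftl1 5′ UTR, chr7:52715148-52715177, minus strand: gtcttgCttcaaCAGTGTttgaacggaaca
Slc40a1 5′ UTR, chr1:45982309-45982338, minus strand: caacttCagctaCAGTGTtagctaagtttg
Tfrc 3′ UTR, chr16:32631305-32631334, plus strand: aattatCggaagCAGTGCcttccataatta
Tfrc 3′ UTR, chr16:32631684-32631713, plus strand: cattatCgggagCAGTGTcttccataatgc
Tfrc 3′ UTR, chr16:32631749-32631778, plus strand: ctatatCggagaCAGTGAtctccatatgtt
Tfrc 3′ UTR, chr16:32631796-32631825, plus strand: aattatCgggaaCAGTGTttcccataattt
Tfrc holds 4 matches in its 3′ UTR where the other 3 genes hold 1 each in the 5′ UTR. The other 6 genes had no match, which says only that these letters are not in their annotated untranslated regions.

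All 10 genes passed the filter of a mean value of at least 1. Of the 9 genes other than Scara5, 1 passed an adjusted p of 0.05 with limma, Slc40a1, which was lower in L-RalyKO, where 6.55% of all genes tested passed (3.36% higher and 3.19% lower). With edgeR it was again Slc40a1, against 6.76% of all genes. Nothing is read from these counts, since the genes were listed with earlier results known. The values of the groups did not overlap for 5 genes, with Scara5, Trf and Ftl1 higher and Slc40a1 and Bmp6 lower in L-RalyKO; over all genes tested, 28.1% did not overlap (14.4% higher and 13.7% lower). The median log2 difference of the 10 genes was 0.09, and 0.00844 without Scara5, against 0.00444 over all genes tested.

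**Figure D1:**
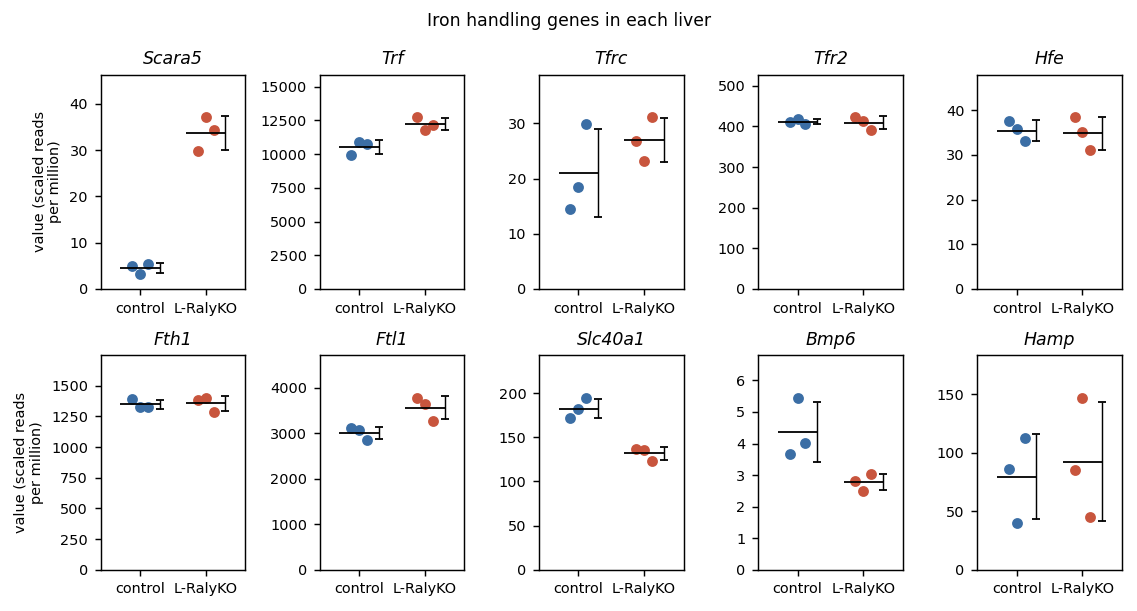
Values of the 10 iron handling genes in each control and L-RalyKO liver, as scaled reads on axes set for each gene, with points for mice, lines for the mean of 3 and bars for ± 1 SD. Scara5 sits between 3.26 and 5.38 in controls and between 29.8 and 37.0 in L-RalyKO mice, whereas the groups of Hamp, Tfrc, Tfr2, Hfe and Fth1 overlap.

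Scara5 (ENSMUSG00000022032.8, chr14:66285240-66383663, plus strand) had values of 5.04, 3.26 and 5.38 in the control livers and 29.8, 37.0 and 34.2 in the L-RalyKO livers. All 3 L-RalyKO mice stood well above all 3 control mice, and within each group the values kept within a 1.65-fold range. The means were 4.56 ± 1.14 and 33.7 ± 3.66 (SD, n = 3), a ratio of 7.39. On the log2(value + 1) scale the difference was 2.66 (SE 0.15), and it was 2.87 on recovered reads without the pseudocount. These values rest on 93 to 1301 reads per library.

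Scara5 is also known from fibroblasts and other stromal cells, so marker genes of some other liver cells are given beside it. In bulk liver, fewer cells of a type and less RNA per cell cannot be told apart. Of 14 stellate cell and fibroblast markers 12 were tested and 0 passed with limma (2 at an unadjusted p of 0.05, 0 with edgeR, 1 with DESeq2), with summed values of 265 to 292 in controls and 260 to 339 in L-RalyKO. Among them Col1a2, a collagen of fibroblasts, had values of 11.1, 9.54 and 11.2 in controls and 12.4, 13.0 and 17 in L-RalyKO, without overlap (log2 difference 0.37, limma adjusted p = 0.105). The fibroblast genes Col1a1, Col3a1, Lum and Dpt had log2 differences of 0.46, 0.39, 0.39 and 0.23, with overlapping groups and adjusted p between 0.22 and 0.426 by limma. Lrat, a stellate cell gene, was at −0.43 and the fibroblast gene Dcn at 0.03, and the median of the 12 tested was 0.07. Every tested marker of this list except Rgs5 was highest of the L-RalyKO group in mouse 3. Scara5 was at 34.2 in that mouse, against 29.8 and 37.0 in L-RalyKO mice 1 and 2. Mesothelial markers summed to 1.61 to 2.84 in controls and 0.725 to 6.92 in L-RalyKO, and the 1 that could be tested did not pass. Cholangiocyte markers summed to 32.5 to 34.7 in controls and 32.2 to 41.0 in L-RalyKO. Of the 3 tested, 0 passed with limma or edgeR and 1 with DESeq2. Among them Sox9 was higher without overlap (log2 difference 0.55, limma adjusted p = 0.0774). Epcam and Spp1 overlapped, with log2 differences of 0.15 and −0.05. The adipocyte list was lower in L-RalyKO, with sums of 2504 to 3749 in controls against 1671 to 2093. Of its 3 tested genes 2, Cfd and Car3, passed with limma and Car3 alone with edgeR (Cfd, edgeR adjusted p = 0.143). Over all genes tested, 6.55% passed with limma (3.19% lower), 6.76% with edgeR and 1088 of 11580 with DESeq2. Car3, which hepatocytes also express, makes up most of that sum. The defining adipocyte markers Adipoq, Plin1, Lep and Retn had at most 7 reads in any library, and the last 3 were at 0 in all L-RalyKO libraries. The part of these cells in the Scara5 values was not tested.

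Of the other class A scavenger receptors Msr1, Marco, Colec12 and Scara3, only Colec12 passed with limma, in the other direction than Scara5 moved. Over all genes tested, 6.55% passed with limma (3.19% lower). Colec12, a collectin with a scavenger receptor body, fell from 64.9, 65.9 and 60.4 to 51.2, 54.0 and 55.7 (log2 difference −0.25, SE 0.0557, limma adjusted p = 0.0376). Its groups did not overlap. The call was lost without control mouse 1 or 2 or any one L-RalyKO mouse, with adjusted p between 0.0571 and 0.132.

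The genes nearest to Scara5 in pattern were found by the root mean square difference over the 6 libraries, after the control mean was taken from each gene's log2(value + 1). The first 5 were Zbtb16 at 0.404, Cish at 0.534, Plcd3 at 0.699, Foxq1 at 0.703 and Il1r1 at 0.706, and since they were chosen for this pattern their levels are a description. Zbtb16, a zinc finger transcription factor, had values of 9.42, 7.26 and 13.0 in controls and 106, 86.3 and 89.8 in L-RalyKO. Cish, a feedback inhibitor of STAT5 signaling, had values of 4.86, 3.93 and 11.7 in controls and 34.4, 41.7 and 21.7 in L-RalyKO. The groups of both did not overlap, and the L-RalyKO mouse nearest to the controls for Cish was mouse 3. Plcd3, a phospholipase C, had values of 0.894, 0.631 and 1.35 in controls and 5.38, 5.16 and 5.18 in L-RalyKO. Foxq1, a forkhead transcription factor, had values of 3.22, 6.07 and 6.54 in controls and 46.7, 38.4 and 13.9 in L-RalyKO. Zbtb16 and Plcd3 were thus even across the L-RalyKO mice, as Scara5 was, whereas Foxq1, like Cish, was lowest in L-RalyKO mouse 3.

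**Figure D2:**
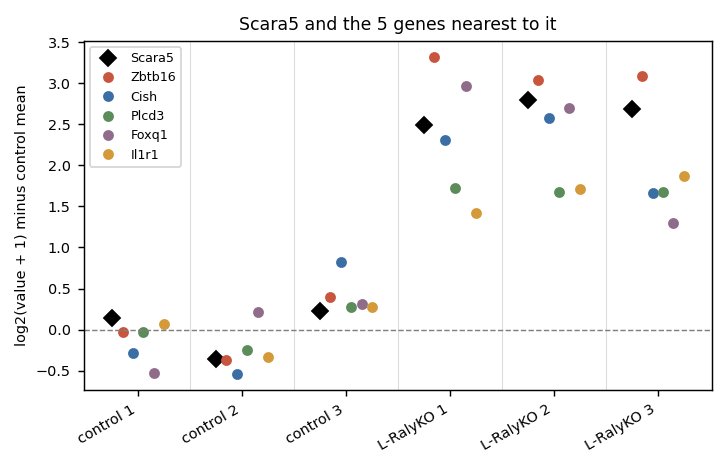
Scara5 (diamonds) and the 5 genes nearest to it, as log2(value + 1) minus each gene's control mean, in each of the 6 libraries. Zbtb16 lies above Scara5 in all 3 L-RalyKO libraries, and Cish, Plcd3 and Il1r1 lie below it in all 3. Foxq1 lies above it in L-RalyKO 1 and well below it in L-RalyKO 3.

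Hamp (ENSMUSG00000050440.7, chr7:31727390-31729036, minus strand), which codes for hepcidin, had values of 86.3, 40.1 and 112 in the control livers and 85.5, 147 and 45.1 in the L-RalyKO livers. The groups overlapped almost fully, and the highest and the lowest L-RalyKO mouse differed 3.25-fold. The means were 79.5 ± 36.5 and 92.4 ± 51.1 (SD, n = 3), and the log2 difference was 0.18 (SE 0.448, limma adjusted p = 0.862). The 95% interval of −0.84 to 1.20 takes in drops as well as rises of more than 1.5-fold. The spread of Hamp between mice of a group lay at the 99.8 percentile of all genes tested, and its direction turned when control mouse 2 (−0.25) or L-RalyKO mouse 2 (−0.23) was left out.

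Hamp2, the neighboring paralog, went with Hamp across the mice. Its values were 80.9, 52.0 and 82.6 in controls and 80.0, 143 and 56.1 in L-RalyKO (log2 difference 0.29, SE 0.306, limma adjusted p = 0.627). Both genes were thus lowest in control mouse 2 and L-RalyKO mouse 3 and highest in control mouse 3 and L-RalyKO mouse 2. The Hamp2 difference turned to −0.0693 without L-RalyKO mouse 2 and was 0.0774 without control mouse 2. Of the 50-base words of Hamp transcripts, 17.5% also occur in Hamp2, so reads may be split between them. Their promoters are printed because they move together across the mice, over the 250 bases before the RefSeq start (GRCm38.p6). Capitals mark GGCGCC, a BMP-responsive SMAD-binding sequence, and TTCNNNGAA, the STAT-binding sequence.
Hamp, chr7:30944030-30944279, minus strand: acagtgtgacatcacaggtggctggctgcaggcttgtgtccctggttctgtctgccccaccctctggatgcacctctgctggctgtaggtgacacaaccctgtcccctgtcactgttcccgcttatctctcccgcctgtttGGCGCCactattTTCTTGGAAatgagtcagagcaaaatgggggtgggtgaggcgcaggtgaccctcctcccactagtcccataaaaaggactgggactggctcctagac
Hamp2, chr7:30924182-30924431, minus strand: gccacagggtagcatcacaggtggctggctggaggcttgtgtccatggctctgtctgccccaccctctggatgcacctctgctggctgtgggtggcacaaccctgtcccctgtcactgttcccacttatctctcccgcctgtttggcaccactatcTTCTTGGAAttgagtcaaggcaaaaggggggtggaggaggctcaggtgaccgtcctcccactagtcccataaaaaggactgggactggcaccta
Each motif reads the same on both strands, and they do not overlap. Hamp holds GGCGCC at −109 and TTCNNNGAA at −97, and Hamp2 holds only the second, at −94. Over 32851 promoters of the same length, 9.59% hold GGCGCC and 7.02% hold TTCNNNGAA. Of the 10 genes 7 were matched to a RefSeq promoter, with 11 starts, and among these Hamp alone held TTCNNNGAA, while GGCGCC also lay before 1 Tfrc start. Scara5, Trf and Slc40a1 were not matched.

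Bmp6 (ENSMUSG00000039004.4, chr13:38436995-38592183, plus strand), the ligand that raises Hamp, had values of 3.67, 5.43 and 4.0 in the control livers and 2.82, 2.50 and 3.03 in the L-RalyKO livers. Each L-RalyKO mouse lay below each control mouse. The L-RalyKO mean of 2.78 ± 0.268 was 0.637 of the control mean of 4.37 ± 0.94 (SD, n = 3), and the log2 difference was −0.49 (SE 0.132, 95% interval −0.79 to −0.19, limma adjusted p = 0.0627). With 86 to 155 reads per library, Bmp6 was just outside the threshold, and it passed with DESeq2 (adjusted p = 0.0256) and with total count scaling (limma, adjusted p = 0.0494). Of 10 markers of sinusoidal endothelial cells, which make most hepatic Bmp6, 0 passed with limma, edgeR or DESeq2, where 6.55% of all genes passed with limma. Among the 10, 0 had an unadjusted p under 0.05 with limma. They summed to 306 to 313 in controls and 270 to 340 in L-RalyKO. Bmp2, the other endothelial ligand for hepcidin, had a log2 difference of −0.29 (limma, adjusted p = 0.165).

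Hfe and Tfr2, which sense iron-loaded transferrin at the hepatocyte surface, had overlapping levels in the groups. Hfe (ENSMUSG00000006611.8, chr13:23793903-23802723, minus strand) had values of 37.6, 35.7 and 33.0 in controls and 38.4, 35.1 and 31.1 in L-RalyKO, which overlap. Its log2 difference was −0.03 (SE 0.0831, 95% interval −0.22 to 0.16, limma adjusted p = 0.894). Tfr2 (ENSMUSG00000029716.8, chr5:138011079-138028709, plus strand) had values of 410, 419 and 407 in controls and 422, 414 and 391 in L-RalyKO, with a log2 difference of −0.01 (SE 0.0486, limma adjusted p = 0.934). Its 95% interval of −0.12 to 0.10 was the narrowest of the 10, and its spread between mice lay at the 8.85 percentile of all genes tested.

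Tfrc (ENSMUSG00000022797.9, chr16:32609006-32632880, plus strand), the receptor for transferrin uptake in most cells, had values of 14.6, 18.4 and 29.9 in the control livers and 26.8, 23.2 and 31.1 in the L-RalyKO livers. Control mouse 3 lay among the L-RalyKO mice and the other control mice lay below them. The means were 21.0 ± 7.97 and 27.0 ± 3.94 (SD, n = 3), with a log2 difference of 0.40 (SE 0.22, 95% interval −0.10 to 0.90, limma adjusted p = 0.325). Without control mouse 3 the difference was 0.68 and passed (limma, adjusted p = 0.0253), whereas without control mouse 1 it was 0.18. Red cell precursors are rich in Tfrc, and the erythroid list summed to 575 to 1044 in controls and 541 to 1196 in L-RalyKO. Its 5 tested genes had 0 past the threshold with limma, edgeR or DESeq2, where 6.55% of all genes passed with limma. At an unadjusted p of 0.05 with limma there were 0.

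Trf (ENSMUSG00000032554.9, chr9:103106331-103132774, minus strand), which codes for the plasma carrier transferrin, had values of 9905, 10857 and 10745 in the control livers and 12715, 11779 and 12171 in the L-RalyKO livers. All L-RalyKO mice were above all control mice. The means were 10502 ± 520 and 12222 ± 470 (SD, n = 3), or 1.02% to 1.09% of all reads against 1.17% to 1.24%. The log2 difference of 0.22 (SE 0.0914, 95% interval 0.01 to 0.43) did not pass after adjustment with limma (adjusted p = 0.199) or edgeR (adjusted p = 0.0924). It passed with DESeq2 (adjusted p = 0.0124). Of the 8 hepatocyte markers 4 were also higher without overlap, where 14.4% of all genes were: Hnf4a, Serpina1c, Apoa1 (log2 difference 0.28, limma adjusted p = 0.141) and Cps1 (0.32, adjusted p = 0.0845). The other 4, Alb, Ttr, Fabp1 and Asgr1, overlapped, with log2 differences between −0.11 and 0.05. Their part in the Trf and Ftl1 values was not tested. Srprb, a neighboring gene whose transcripts hold 21.2% of the 50-base words of Trf, had a log2 difference of 0.09 (limma, adjusted p = 0.554).

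The ferritin chains, which form the shell that stores iron, are given together. Fth1 (ENSMUSG00000024661.6, chr19:10057193-10059582, plus strand), the chain that oxidizes iron, had values of 1391, 1326 and 1331 in controls and 1388, 1399 and 1287 in L-RalyKO, with a log2 difference of 0.00844 (SE 0.0584, 95% interval −0.12 to 0.14, limma adjusted p = 0.952). Ftl1 (ENSMUSG00000050708.8, chr7:52713314-52715254, minus strand), the chain that favors iron deposition in the core, had values of 3111, 3064 and 2853 in controls and 3774, 3636 and 3278 in L-RalyKO. Fth1 thus overlapped between the groups, and all Ftl1 values in L-RalyKO were above all control values. The Ftl1 means were 3009 ± 137 and 3562 ± 256 (SD, n = 3), with a log2 difference of 0.24 (SE 0.0777, 95% interval 0.06 to 0.42). The Ftl1 difference did not pass with limma (adjusted p = 0.106) or edgeR (adjusted p = 0.0736), and it passed with DESeq2 (adjusted p = 0.0123).

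Per kilobase of exon, Ftl1 stood to Fth1 as 1.45, 1.49 and 1.39 in the control livers and as 1.76, 1.68 and 1.65 in the L-RalyKO livers, means of 1.44 ± 0.0540 and 1.69 ± 0.0569 (SD, n = 3). The ratios did not overlap between the groups. The ratio was chosen after its values were seen and was not tested. Gm10116, a gene for which the table held no reads, holds 74.6% of the 50-base words of Ftl1. The count of Ftl1 therefore depends on how shared reads were assigned, and processed pseudogenes of either ferritin were not searched.

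Slc40a1 (ENSMUSG00000025993.4, chr1:45964915-45982439, minus strand), which codes for the iron exporter ferroportin, had values of 172, 181 and 194 in the control livers and 136, 135 and 123 in the L-RalyKO livers. The highest L-RalyKO mouse lay well below the lowest control mouse. Slc40a1 fell by 27.9%, from 182.5 ± 11.2 to 131.6 ± 7.41 (SD, n = 3), with a log2 difference of −0.47 (SE 0.0624, 95% interval −0.61 to −0.33, limma adjusted p = 0.00488). It passed in every one of 14 alternative analyses, with adjusted p between 8.75e-09 and 0.0192. Macrophages that recycle red cells are rich in ferroportin. Of 9 Kupffer cell and macrophage markers 0 passed with limma, edgeR or DESeq2, where 6.55% of all genes passed with limma. Among the 9, 0 had an unadjusted p under 0.05 with limma. Their summed values were 201 to 287 in controls and 200 to 258 in L-RalyKO.

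**Figure D3:**
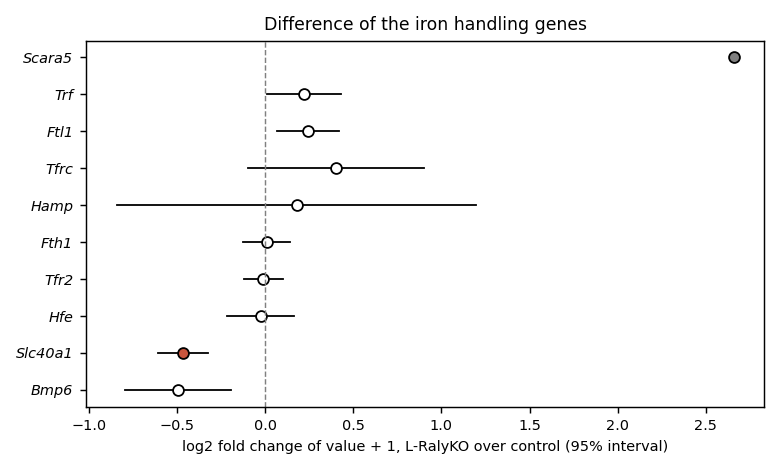
Log2 difference of each gene, L-RalyKO minus control on the log2(value + 1) scale, with the 95% interval from limma for all genes but Scara5, which was chosen for its difference. Scara5 lies at 2.66 and Slc40a1 at −0.47, the intervals of Trf, Ftl1 and Bmp6 leave out 0 without adjustment, and that of Hamp runs from −0.84 to 1.20.

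Levels of different genes were compared per kilobase of annotated exon, a scale that assumes all exons are used. The annotation holds 2 gene records named Trf, and its coordinates and exon length are those of the record with the lower identifier. In control livers the order was Trf at 3173 ± 157, Ftl1 at 2246 ± 103, Fth1 at 1558 ± 42.2, Hamp at 203 ± 93.2, Tfr2 at 141 ± 2.13, Slc40a1 at 54.0 ± 3.31, Hfe at 9.92 ± 0.645, Tfrc at 3.39 ± 1.29, Bmp6 at 1.22 ± 0.262 and Scara5 at 0.748 ± 0.187 (mean ± SD, n = 3). Among neighbors in this order, the values of Hamp and Tfr2 overlapped and the others were apart. In L-RalyKO livers Scara5 was at 5.53 ± 0.601, above Bmp6 at 0.775 ± 0.0747 and overlapping Tfrc at 4.37 ± 0.637, so the last place passed from Scara5 to Bmp6. Even there, Scara5 stayed below Tfr2 at 139.8 ± 5.44. Tfr2 exceeded Tfrc by 59.4, 48.0 and 28.8 times in controls and by 33.3, 37.7 and 26.6 times in L-RalyKO, which overlap. The 10 genes held 1.56% to 1.61% of all reads in controls and 1.74% to 1.81% in L-RalyKO, most of it from Trf.

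The other genes of iron handling were taken as 9 lists with 102 genes, of which 101 were in the table and 95 were tested. Of the 95, 8 were higher and 2 lower in L-RalyKO at an adjusted p of 0.05 with limma, or 10.5% against 6.55% of all genes tested. With edgeR 7 of the 95 passed, against 6.76% of all genes. The count was 3 without L-RalyKO mouse 2 and 5 without control mouse 1, control mouse 2 or L-RalyKO mouse 1, and the lists were drawn up with earlier results known. The median log2 difference of the 95 was 0.01309, against 0.00444 over all genes tested. Of the 10 calls, 5 were among the inflammatory inputs to hepcidin.

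Of the 14 tested genes of the BMP-SMAD pathway, which runs from receptors to SMAD proteins, 1 was higher with limma (6.55% of all genes passed) and 0 passed with edgeR, and the median log2 difference was −0.03. Smad9, a SMAD of the BMP branch, rose from 11.5, 14.7 and 19.9 to 27.1, 27.9 and 27.4 (log2 difference 0.83, SE 0.156, limma adjusted p = 0.0185), without overlap. The call was not kept with edgeR (adjusted p = 0.0554), nor without control mouse 2 or any one L-RalyKO mouse (limma, adjusted p 0.054 to 0.0611). Of 8 genes that the same signal is known to raise, 1 passed with limma, 0 with edgeR and 2 with DESeq2. Over all 11580 genes tested, 1088 passed with DESeq2. The median log2 difference of the 8 was 0.32, against 0.00444 over all genes tested. Atoh8 was at −0.33, and the groups of Atoh8, Id2, Smad6, Smad7, Bambi and Hamp2 overlapped. Id1 was higher without overlap (log2 difference 0.44, limma adjusted p = 0.156). Id3, an inhibitor of helix-loop-helix transcription factors, rose from 10.3, 10.1 and 8.81 to 21.2, 38.5 and 19.4 (log2 difference 1.29, SE 0.216, limma adjusted p = 0.012; edgeR, adjusted p = 0.071). The Id3 groups did not overlap, and L-RalyKO mouse 2 was the highest.

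Of 9 genes of the inflammatory input to hepcidin, 4 were higher and 1 was lower with limma, where 6.55% of all genes passed, and 4 of the 9 passed with edgeR. Il1r1, the interleukin 1 receptor, rose from 31.1, 23.3 and 36.0 to 80.9, 99.9 and 111 (log2 difference 1.67, SE 0.158, limma adjusted p = 0.00123), a ratio of 3.23. Il6ra, the receptor for interleukin 6, rose from 53.5, 50.9 and 63.4 to 102, 81.6 and 97.4 (log2 difference 0.74, SE 0.102, limma adjusted p = 0.00566). For both genes every L-RalyKO mouse was above every control mouse, and both passed in all 14 alternatives. Il1r1 was also among the genes nearest to Scara5 in pattern, so its values and calls are a description.

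Stat3, which carries the interleukin 6 signal to the Hamp promoter, rose by a smaller amount, from 87.5, 89.7 and 93.1 to 107, 104 and 102 (log2 difference 0.21, SE 0.047, limma adjusted p = 0.0372). Socs3, the feedback inhibitor that STAT3 raises, rose from 2.15, 2.59 and 3.54 to 13.6, 12.3 and 5.18 (log2 difference 1.51, SE 0.297, limma adjusted p = 0.0214; edgeR, adjusted p = 0.0782), with L-RalyKO mouse 3 nearest to the controls. Inhbb, the activin B subunit that can signal to Hamp, fell from 4.89, 3.30 and 6.95 to 2.01, 1.39 and 1.87 (log2 difference −1.09, SE 0.206, limma adjusted p = 0.0185). None of these groups overlapped. Stat3 was lost without control mouse 1 or 2 or any one L-RalyKO mouse (limma, adjusted p 0.0632 to 0.134) and with total count scaling (0.0528), Socs3 without control mouse 1 or 2 or L-RalyKO mouse 1 or 2 (0.059 to 0.0776), and Inhbb without control mouse 1 (0.0627) or L-RalyKO mouse 2 (0.0635). Of 8 acute phase genes, which the same signals raise, 2 passed with limma and 2 with edgeR, against 6.55% and 6.76% of all genes tested. Saa1 was higher at 22.6 ± 1.77 against 12.8 ± 2.80 and Orm1 at 370 against 311 (limma, adjusted p = 0.0118 and 0.0173). The other 6 did not pass. The Orm1 call was lost on leaving out control mouse 1 or 2 or any one L-RalyKO mouse (limma, adjusted p 0.052 to 0.0604). The values of Hamp, which these inputs raise, overlapped between the groups.

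Of 8 genes of the iron regulatory protein system, which bind iron-responsive elements, act with those that do, or carry an element, 0 passed with limma, edgeR or DESeq2. Over all genes tested, 6.55% passed with limma and 1088 of 11580 with DESeq2. At an unadjusted p under 0.05 with limma there were 3 of the 8. The share of all genes at that level is not given here, so nothing is read from the unadjusted counts of any list. Cdc14a had the widest log2 difference there, −0.42 (limma, adjusted p = 0.108), and Alas2, the red cell heme enzyme, had −0.00283 (adjusted p = 0.99). Of the 11 tested partners of uptake and ferritin storage 0 passed with limma or edgeR and 1 with DESeq2 (2 at an unadjusted p of 0.05 with limma), with Steap3, a ferrireductase, at −0.22 (adjusted p = 0.231) and Ncoa4, which delivers ferritin to lysosomes, at 0.21 (adjusted p = 0.0774). Of 5 genes of iron and heme export, transporters and the copper oxidases that act with them, 0 passed with limma, edgeR or DESeq2 (1 at an unadjusted p of 0.05 with limma), with Mfsd7b, the heme exporter also called Flvcr1, at −0.16 (adjusted p = 0.517). Cp, the copper oxidase that readies exported iron for transferrin, had a log2 difference of 0.04 (adjusted p = 0.73).

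Of 19 genes of heme synthesis, scavenging and breakdown 1 was higher with limma, where 6.55% of all genes passed, and 1 passed with edgeR. Bach1, a repressor that heme inactivates, rose from 48.5, 56.1 and 57.7 to 69.9, 83.1 and 65.0 (log2 difference 0.42, SE 0.098, limma adjusted p = 0.043), and Hmox1, the heme oxygenase it represses, had a log2 difference of −0.01 (adjusted p = 0.959). The Bach1 groups did not overlap, and the call was lost without control mouse 1 (0.127), control mouse 2 (0.0767), L-RalyKO mouse 1 (0.0998) or L-RalyKO mouse 2 (0.0958). Alas1, the first enzyme of heme synthesis, had values of 716, 508 and 1115 in controls and 1123, 1027 and 894 in L-RalyKO (log2 difference 0.45, limma adjusted p = 0.309). Control mouse 3 lay among the L-RalyKO mice as for Tfrc, and Alas1 passed without that mouse (0.74, limma adjusted p = 0.026). Without control mouse 2 the difference was 0.18 (limma, adjusted p = 0.63). Of 17 genes of mitochondrial iron and iron-sulfur clusters 1 was higher with limma and 1 passed with edgeR, beside the same 6.55%. Fdx1, a ferredoxin, rose from 57.2, 60.1 and 52.7 to 69.3, 73.8 and 71.5 (log2 difference 0.33, SE 0.0593, limma adjusted p = 0.0148), without overlap, and it was just outside the threshold without L-RalyKO mouse 2 (adjusted p = 0.0539).

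**Figure D4:**
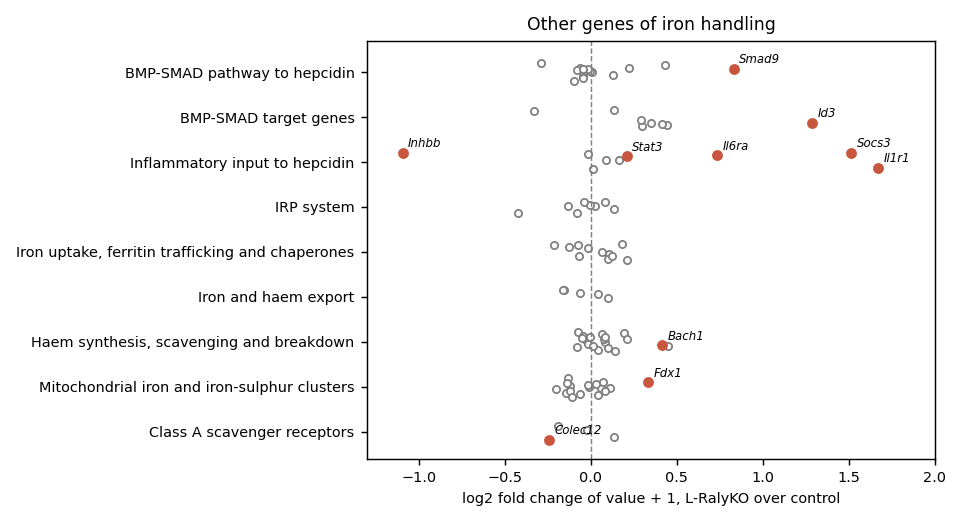
Log2 difference (L-RalyKO minus control) of each tested gene in the 9 iron pathway lists, with red filled points for adjusted p under 0.05 by limma. The inflammatory list reaches from Inhbb at −1.09 to Il1r1 at 1.67, and the regulatory protein, uptake and export lists hold no filled point.

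**Figure D5:**
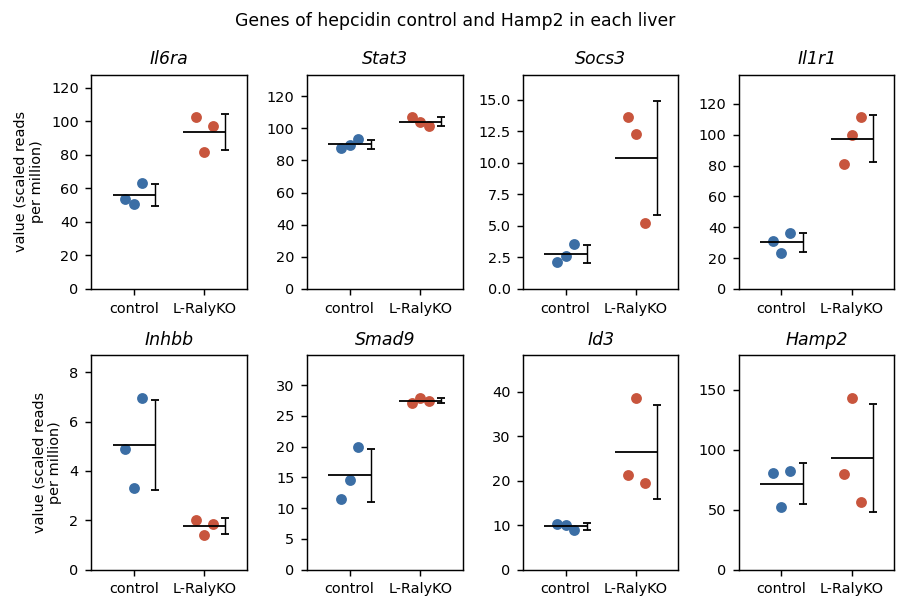
Values (scaled reads) of genes of hepcidin control and of Hamp2 in each of the 6 livers, with points for mice, lines for means and bars for ± 1 SD. Il1r1 and Il6ra are higher in all 3 L-RalyKO mice, while the values of Hamp2 overlap.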

How the data were processed

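Liver RNA-seq of 3 L-RalyKO and 3 control mice was analysed, with groups and replicate numbers from the labels. The ATAC-seq and ChIP-seq samples were not analysed here. The authors deposited a normalized signal for each gene, its reads over an effective library size. The methods and the submitters' processing notes name TopHat, Cufflinks 2.0.2 and Cuffdiff on mm9 with stranded libraries, and the methods do not say how the deposited values were made. All values (100%, tolerance 0.01 of a read) were whole multiples of 1 read in each library, and the scaling equalled TMM factors recomputed with edgeR. The design provided for limma if the values were not counts, and this was used. limma 3.58.1 (R 4.3.3), with an intensity trend, was run on log2(value + 1). Genes whose values averaged under 1 were left out, and Benjamini-Hochberg adjustment covered the remaining 11580 genes. Fold differences on this scale understate those of low genes. The count test on recovered reads, edgeR 4.0.16, called 783 genes. On data simulated for this comparison over 11525 genes, limma called 128 of 132 genes changed at least 2-fold and 48 of 67 changed 1.5-fold. Of its calls, 8.81% were false.

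With 3 mice per group no exact permutation test can give p under 0.1, and both the number of mice and the depth limit precision. The labels number the replicates and tie none to an animal, so p-values measure the spread between these samples, which the methods describe as mice. The members and all gene lists were chosen with earlier results of these data known. Genes named are the 10 members, Raly, each pathway gene that passed, the largest difference in each list and the 5 genes nearest to Scara5. Hamp2, Srprb, Saa1, Orm1, Bmp2, Ncoa4, Cp, Hmox1, Alas2 and the marker genes were named in addition, after their values were seen. Msr1, Marco and Scara3 were named as the rest of the class A scavenger receptor list, and Gm10116 for the sequence it shares with Ftl1. Alternatives were edgeR, DESeq2 1.42.0, total count scaling, a pseudocount of 0.1, 2 other filters, a replicate block, each mouse left out, and, chosen after seeing the data, limma without the trend. Coordinates and exon lengths are of NCBIM37 (GENCODE vM1), and promoters are from RefSeq on GRCm38.p6, whose coordinates were not combined with the former.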

Additional observations from a re-analysis of the deposited data

How the results depend on the processing

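The number of genes passing was 484 when every gene with at least 1 read was tested and 332 to 813 with 1 mouse left out (369 without control mouse 1, and 332, 437 and 491 without L-RalyKO mouse 1, 2 and 3), against 758, 704 with the replicate block and 1088 with DESeq2. Scara5 was listed for its difference, so its place past the threshold is no test. Counted with it, the iron handling genes past the threshold numbered 2, against 5 with DESeq2 (with Slc40a1, Trf, Ftl1 and Bmp6), 3 with total count scaling (with Slc40a1 and Bmp6), and 2 to 3 with 1 mouse left out. Among the other iron pathway genes 3 to 14 passed with 1 mouse left out, against 10, and 7 to 13 under the other alternatives. Small differences changed sign: Fth1 with total count scaling (−0.0258, where the median of all genes moved to −0.0274), and with 1 mouse left out Fth1 (−0.0133 to 0.0465), Hamp (−0.25 to 0.61), Hamp2 (−0.0693 to 0.60), Hfe (−0.10 to 0.0520) and Tfr2 (−0.0324 to 0.0218). The cause was otherwise not tested. Over 34 genes and 14 alternatives, 408 of 471 single-gene values kept direction and side of the threshold, 45 no longer passed, 6 newly passed and 12 changed sign. The 408 include the values of Scara5, which were not judged by the threshold. Those kept direction and moved by less than its within-group SD. Scara5 stayed between 2.48 and 2.88, and Slc40a1 passed throughout. Replicate numbers only name the mice: deviations of same-numbered mice correlated at 0.07, −0.02 and 0.02. With the replicate block the iron handling genes past the threshold, Scara5 counted, numbered 2 and the pathway genes 8, with Stat3 (limma, adjusted p = 0.0685) and Colec12 (0.0668) no longer passing. Testing every gene with a read ended the calls of Bach1 (limma, adjusted p = 0.08125), Colec12 (0.0541) and Socs3 (0.055), total count scaling that of Stat3 (0.0528), and leaving out the trend those of Bach1 (0.0791), Colec12 (0.0758) and Stat3 (0.0844). Not every mouse correlated best with its own number. Among the 10 genes the lowest counts were 86 reads for Bmp6 in L-RalyKO mouse 2 and 93 for Scara5 in control mouse 2. Some other genes named had fewer, such as Plcd3 with 18 and Cfd with 5.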
